A study of Drosophila melanogaster with 18 samples.

Results

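Lipases release fatty acids from stored or dietary fat, and 6 lipase genes of Drosophila melanogaster, CG5966, bmm (brummer), Hsl, mag (magro), Lip3 and Lip4, were followed through RNA-seq of single fly heads. They are 6 of the 17559 genes with deposited values. They were picked by name with the group means of these heads already known. What the members themselves show across groups is therefore given as a description, without p-values. Where the fit over all genes called a member, the call describes the choice and is no evidence of a difference.

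The heads came from 18 starved flies, 6 per group, all exposed to an odor. In the sucrose group the odor was paired with sucrose, a sweet and nutritious sugar. In the sorbose group it was paired with sorbose, which tastes sweet to flies and has no food value for them. Both trained groups were collected 4 h after training. The third group, called odor here, met the odor without sugar, and the labels give it no collection time. Sugar, training and time of collection therefore cannot be told apart in any difference from the odor flies, and both trained groups are set against the same odor flies. The study describes the flies as females. Strain and age are not given in the labels, and the labels name no transgene or mutation in any group. Each library was made from a single head, so replicates are separate flies.

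In the fly, fat is kept as triglyceride in lipid droplets, mostly in the fat body, a tissue that serves as liver and adipose tissue and is also present in the head. During a fast, droplet lipases free fatty acids from this store. bmm encodes the fly counterpart of the mammalian adipose triglyceride lipase, and Hsl the counterpart of hormone-sensitive lipase, which also acts at droplets. mag encodes a secreted lipase of the gut that digests dietary fat and cholesterol esters. Lip3 and Lip4 belong to the acid lipase family, which in mammals includes lysosomal and gastric lipases. CG5966 is annotated as a lipase of the pancreatic type from its sequence.

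Values were RPKM, reads per kilobase of gene length and per M (1000000) mapped reads. Recovered library sizes ranged from 45.8 to 77.2 M reads. All 6 genes passed the filter of a mean of at least 0.5 RPKM over the 18 heads, as did 11062 genes in total. mag passed it only through the odor flies, and Lip3 passed it narrowly with a mean of 0.560 RPKM. Per gene length, bmm was the most abundant of the 6 with a mean of 136.7 RPKM over all heads (place 542 of the 11062 genes, counted from the highest). CG5966 averaged 51.7 RPKM, Lip4 19.9 RPKM, Hsl 13.5 RPKM and mag 3.30 RPKM. The order differed between groups. In sucrose flies CG5966 stood below bmm, Hsl and Lip4, whereas in sorbose and in odor flies it stood second to bmm.

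CG5966 (FBgn0029831, protein coding, X:5988791-5992640 on the plus strand, build dm6) had the lowest values in sucrose heads. It lay between 0.849 and 3.31 RPKM in sucrose flies (median 1.74), between 16.6 and 102.8 RPKM in sorbose flies (median 46.1) and between 47.9 and 197.4 RPKM in odor flies (median 85.1). Every sucrose head thus lay below every sorbose and every odor head, while sorbose and odor heads overlapped. The recovered reads ran from 183 to 568 per sucrose head, from 3635 to 23755 per sorbose head and from 12333 to 43426 per odor head, so that depth did not limit any of these values.

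The group means of CG5966 were 1.86 ± 0.939 RPKM in sucrose, 52.7 ± 35.9 RPKM in sorbose and 100.5 ± 52.6 RPKM in odor flies (SD, n = 6 each). The odor mean was 53.9 times the sucrose mean and 1.91 times the sorbose mean, and the sorbose mean was 28.3 times the sucrose mean. On the scale of log2(RPKM + 0.5), the difference of sucrose minus odor was -5.37 ± 0.44 (SE, 95% interval -6.30 to -4.44). It was -4.27 ± 0.44 for sucrose minus sorbose (interval -5.20 to -3.33). Both were the most negative differences of all 11062 genes in their comparison. For sorbose minus odor it was -1.10 ± 0.44, with an interval of -2.04 to -0.17. Within the sorbose group the heads were far apart. Sorbose replicates 2, 3 and 4 had 82.7, 102.8 and 64.8 RPKM, and replicates 1, 5 and 6 had 27.4, 16.6 and 21.7 RPKM, so that the values left a gap between 27.4 and 64.8 RPKM.

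**Figure D1:**
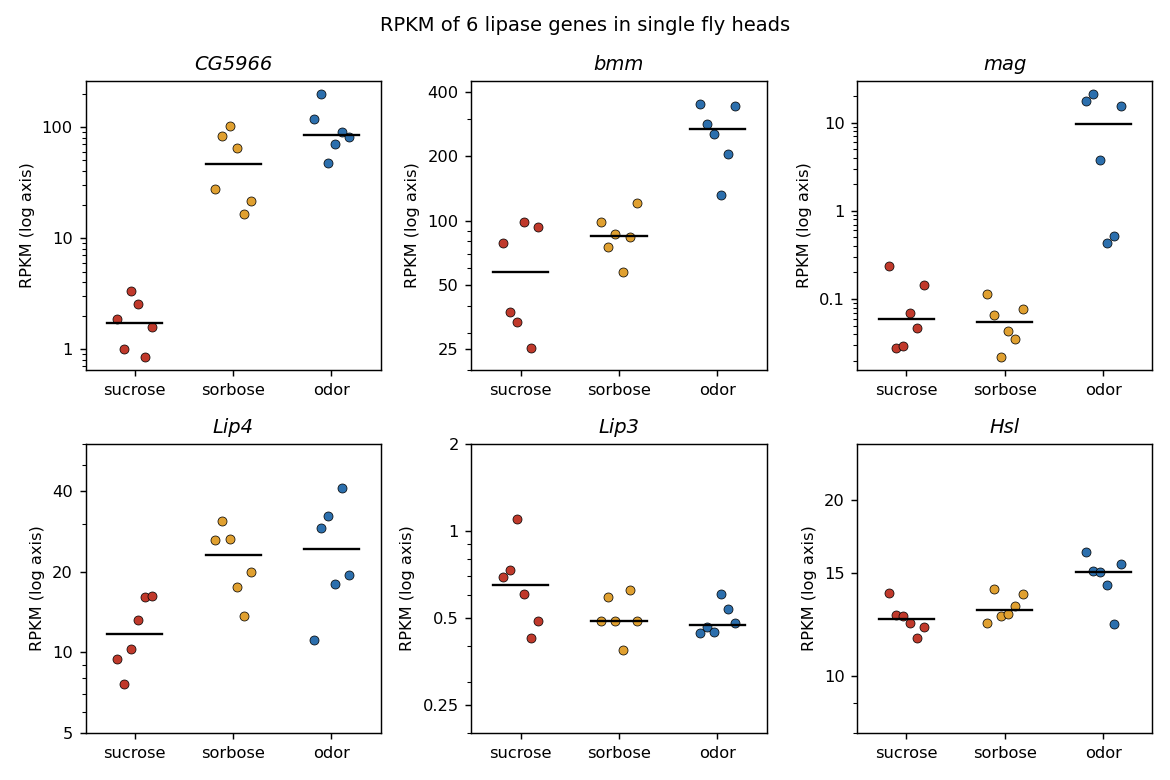
RPKM (log axes, a separate range in each panel) of CG5966, bmm, mag, Lip4, Lip3 and Hsl in sucrose, sorbose and odor flies. Each point is a head (n = 6 per group) and the bar is the median. CG5966 is set apart in sucrose heads (0.849 to 3.31 RPKM), bmm and mag in odor heads, and Hsl covers a narrow range.

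bmm (FBgn0036449, protein coding, 3L:14776496-14786412 on the minus strand) had lower values in both trained groups than in odor flies. It ranged from 25.3 to 98.3 RPKM in sucrose heads (median 57.9), from 57.8 to 121.1 RPKM in sorbose heads (median 85.1) and from 132.6 to 351.0 RPKM in odor heads (median 268.4). No trained head reached the lowest odor head, and the trained groups overlapped with each other. The means were 61.2 ± 32.7 RPKM in sucrose, 87.2 ± 21.4 RPKM in sorbose and 261.7 ± 83.8 RPKM in odor flies (SD, n = 6 each), and the odor mean was 4.28 times that of sucrose and 3.00 times that of sorbose. The log2 difference from odor was -2.21 ± 0.33 for sucrose (SE, interval -2.91 to -1.51) and -1.54 ± 0.33 for sorbose (interval -2.24 to -0.85). For sucrose minus sorbose it was -0.66 ± 0.33, with an interval of -1.36 to 0.03 that includes 0. The sucrose heads fell into 2 ranges for bmm, with 78.4, 98.3 and 93.8 RPKM in replicates 1, 4 and 6 and 37.4, 33.8 and 25.3 RPKM in replicates 2, 3 and 5.

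Hsl (FBgn0034491, protein coding, 2R:20257650-20261726 on the plus strand), the other droplet lipase, varied far less. It ranged from 11.6 to 13.9 RPKM in sucrose heads, from 12.3 to 14.1 RPKM in sorbose heads and from 12.3 to 16.3 RPKM in odor heads. Odor replicate 5 was the lowest odor head, and the other 5 odor heads, at 14.3 RPKM and above, lay above every trained head. The means were 12.6 ± 0.777 RPKM in sucrose, 13.2 ± 0.696 RPKM in sorbose and 14.8 ± 1.39 RPKM in odor flies (SD, n = 6 each). The log2 difference was -0.22 ± 0.06 for sucrose minus odor (SE, interval -0.35 to -0.10) and -0.16 ± 0.06 for sorbose minus odor (interval -0.28 to -0.03). For sucrose minus sorbose it was -0.06 ± 0.06 (interval -0.19 to 0.06). These differences are small next to those of bmm on the same log2 scale.

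mag (FBgn0036996, protein coding, 3L:20460683-20462274 on the plus strand) was near the floor of detection in every trained head. Sucrose heads had 0.0278 to 0.235 RPKM, from 2 to 21 reads, and sorbose heads had 0.0220 to 0.114 RPKM, from 2 to 11 reads. Odor heads had 0.430 to 21.0 RPKM, from 39 to 1822 reads, and all of them lay above all trained heads. The odor heads themselves were widely spread, with 17.4, 21.0, 3.74 and 15.3 RPKM in replicates 1, 2, 3 and 6 but 0.430 and 0.512 RPKM in replicates 4 and 5.

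The log2(RPKM + 0.5) difference of mag was -3.19 ± 0.66 for sucrose minus odor (SE, interval -4.58 to -1.81) and -3.27 ± 0.66 for sorbose minus odor (interval -4.66 to -1.88). Its size depends on the pseudocount, and with 0.1 in place of 0.5 it was -4.60 for sucrose and -4.81 for sorbose. For sucrose minus sorbose it was 0.07 ± 0.66 (interval -1.31 to 1.46), between values of a few reads each. The SE is shared by the 3 groups and comes mostly from the odor heads, with an SD of 2.09 against 0.19 in sucrose and 0.08 in sorbose heads.

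The position of mag bears on how its values can be read. mag lies within the gene atk (artichoke, which encodes an extracellular leucine-rich-repeat protein), on the opposite strand and without shared exonic bases. The libraries do not keep the strand, so reads from introns of atk and reads from mag cannot be told apart where the genes overlap. atk averaged 0.310 RPKM in sucrose, 0.286 RPKM in sorbose and 18.5 RPKM in odor flies, and mag and atk had a Pearson correlation of 0.98 over the 18 heads (log2 scale). The ratio of mag to atk in RPKM was not fixed, and ranged from 0.0792 to 0.971 over the heads. atk was singled out here after its values were seen, because of its position.

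mag is known as a gut gene. Midgut markers differed in level, with means over the 18 heads of 2.93 RPKM for Mal-A1, 0.806 RPKM for Mal-A6 and 9.31 RPKM for Amy-p. Of 14 midgut genes 11 stayed under 0.5 RPKM in every head. The summed level of the 14 ranged from 5.21 to 14.7 RPKM in sucrose, from 5.97 to 15.2 RPKM in sorbose and from 7.09 to 57.7 RPKM in odor flies. Odor replicate 2 held the highest sum together with the highest mag value, and 53.5 RPKM of its sum came from the amylase gene Amy-p. The sum was 7.66 RPKM in odor replicate 1 and 7.09 RPKM in odor replicate 6, where mag had 17.4 and 15.3 RPKM. The part of gut tissue in the mag values was not tested.

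The better expressed of Lip3 and Lip4 was Lip4 (FBgn0032264, protein coding, 2L:10527572-10531778 on the plus strand). Its values lay between 7.64 and 16.2 RPKM in sucrose heads (median 11.7), between 13.7 and 30.9 RPKM in sorbose heads (median 23.1) and between 11.1 and 40.9 RPKM in odor heads (median 24.2). Sucrose heads overlapped with both other groups but stood at the low end. The means were 12.2 ± 3.60 RPKM in sucrose, 22.5 ± 6.49 RPKM in sorbose and 25.1 ± 10.9 RPKM in odor flies (SD, n = 6 each). The log2 difference was -0.95 ± 0.28 for sucrose minus odor (SE, interval -1.54 to -0.35), -0.09 ± 0.28 for sorbose minus odor (interval -0.68 to 0.51) and -0.86 ± 0.28 for sucrose minus sorbose (interval -1.45 to -0.26). The means of Lip4 thus had the order sucrose, sorbose, odor from low to high, as did those of CG5966, bmm and Hsl. As for CG5966, the sucrose mean of Lip4 was well below both others, at a much smaller size. The neighbours sorbose and odor did not differ beyond their spread for Lip4.

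Lip3 (FBgn0023495, protein coding, 3R:13370240-13371904 on the minus strand) was barely expressed. It had 0.425 to 1.10 RPKM in sucrose heads (35 to 72 reads), 0.388 to 0.623 RPKM in sorbose heads (26 to 52 reads) and 0.442 to 0.602 RPKM in odor heads (37 to 54 reads). All groups overlapped, and Lip3 was the only gene of the 6 whose mean was highest in sucrose flies, at 0.673 ± 0.238 RPKM, against 0.511 ± 0.0842 RPKM in sorbose and 0.495 ± 0.0628 RPKM in odor flies (SD, n = 6 each). All 3 intervals of its log2 differences included 0, from -0.01 to 0.44 for sucrose minus odor, from -0.21 to 0.25 for sorbose minus odor and from -0.03 to 0.42 for sucrose minus sorbose. At the downstream end of the gene 107 exonic bases, 7.46% of the total, are shared with CheA87a on the opposite strand, and reads from these bases cannot be assigned. CheA87a averaged 2.28 RPKM in sucrose, 2.82 RPKM in sorbose and 0.891 RPKM in odor flies, and its part in the Lip3 values was not tested.

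**Figure D2:**
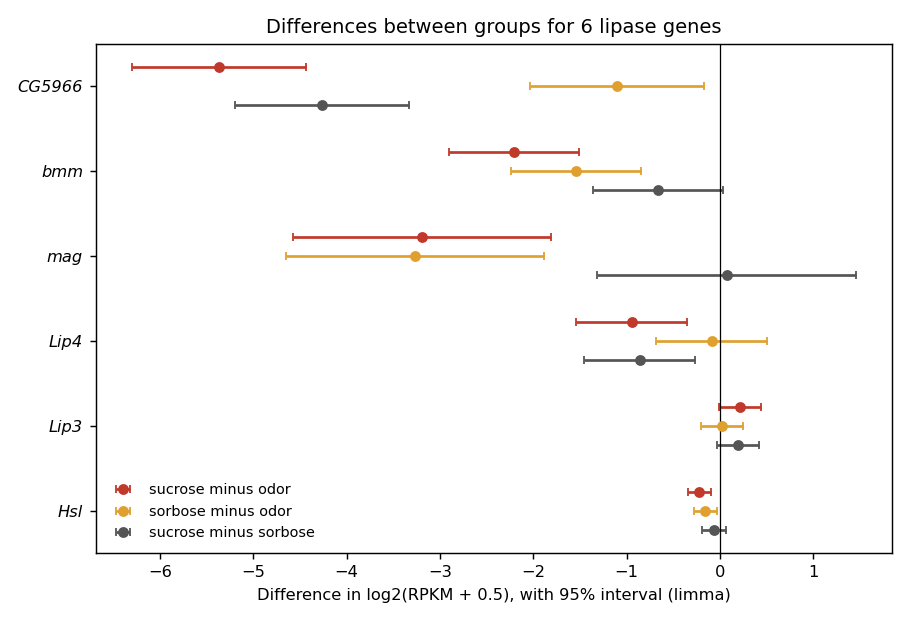
Differences between groups for the 6 lipase genes on the scale of log2(RPKM + 0.5), with 95% intervals from the limma fit (6 heads per group). CG5966 is far below 0 for sucrose minus odor (-5.37) and sucrose minus sorbose (-4.27). bmm and mag are below 0 against odor for both sugars, and Lip3 lies near 0 throughout.

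Set side by side, the 6 genes showed different group patterns. CG5966 separated sucrose heads from all others, bmm and mag separated odor heads from all trained heads, and Lip4, Hsl and Lip3 separated no group. In the fit over all genes (limma, Benjamini-Hochberg adjusted p under 0.05), 5 of the 6 genes were called for sucrose against odor, all lower, where 27.5% of all tested genes were called and 14.4% were called lower. For sorbose against odor 2 were called lower, bmm and mag, where 24.4% of all genes were called and 12.2% lower. For sucrose against sorbose CG5966 was called, and it was the only call among all genes (0.00904%). Without overlap between groups, 3 of the 6 genes were lower in sucrose than in odor heads, as were 5% of all genes. The count was 2 of 6 for sorbose below odor (3.53% of all genes) and 1 of 6 for sucrose below sorbose (0.705%). Because the genes were picked with these contrasts known, nothing is read from their counts.

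The count for sorbose against odor moved with single heads. Without sorbose replicate 2 CG5966 and Hsl were called as well, giving 4. It was 3 without sorbose replicate 3 (CG5966 added), and 3 without odor replicate 5 or with sample quality weights (Hsl added). In a fit on the recovered reads (limma voom, added after the data were seen) 3 of the 6 genes were called for sucrose against odor, without mag and Hsl, and 1 for sorbose against odor, without mag.

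CG5966, bmm and Lip4 varied more between heads of a group than 90% of tested genes, in every group. The other genes did so in no group or, for mag, in odor flies alone. In odor flies mag had a within-group SD of 2.09 on the log2 scale, larger than that of 99.8% of tested genes, but in sucrose flies, near the floor, it exceeded 71.5% of genes and in sorbose flies, with an SD of 0.08, it lay below the median gene. CG5966 had an SD of 1.09 in sorbose flies (larger than 99.1% of genes), and bmm had an SD of 0.84 in sucrose flies (larger than 97.9%). Lip3 exceeded 83.5% of genes in sucrose, 48.3% in sorbose and 20.4% in odor flies. Hsl was the steady gene, with an SD of 0.08 in sucrose, 0.07 in sorbose and 0.14 in odor flies, near or below the median gene (0.12, 0.12 and 0.15).

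Across heads, bmm and mag were correlated, and both had their highest values in odor flies. Their Pearson correlation was 0.81 over the 18 heads (Spearman 0.85), 0.50 after the group means were removed and 0.89 within the 6 odor heads. Both genes were picked with the group means known, so the value over 18 heads partly restates that choice. Trained heads held only 2 to 21 reads of mag, and reads from introns of atk cannot be told apart from mag. The 4 odor heads with the highest mag were also those with the highest bmm, and replicates 4 and 5 were low for both. These correlations are descriptions, since the values of a head share the library. CG5966 correlated with bmm at 0.70 over all heads but at 0.06 once the group means were removed. Within groups this was 0.38 in sucrose, -0.54 in sorbose and 0.33 in odor heads, so the sign differed between groups. With mag, CG5966 correlated at 0.54 in odor, 0.08 in sucrose and -0.38 in sorbose heads. Hsl correlated with mag at 0.80 in odor, 0.57 in sucrose and -0.01 in sorbose heads. With bmm, Hsl correlated at 0.61 in odor, 0.31 in sucrose and 0.17 in sorbose heads. Lip4 and Hsl ran against each other in sucrose (-0.73) and odor heads (-0.72) but not in sorbose heads (0.06). Lip3 ran against bmm in odor heads (-0.90), over values that spanned only 37 to 54 reads for Lip3. In sucrose and sorbose heads that correlation was -0.19 and 0.27.

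**Figure D3:**
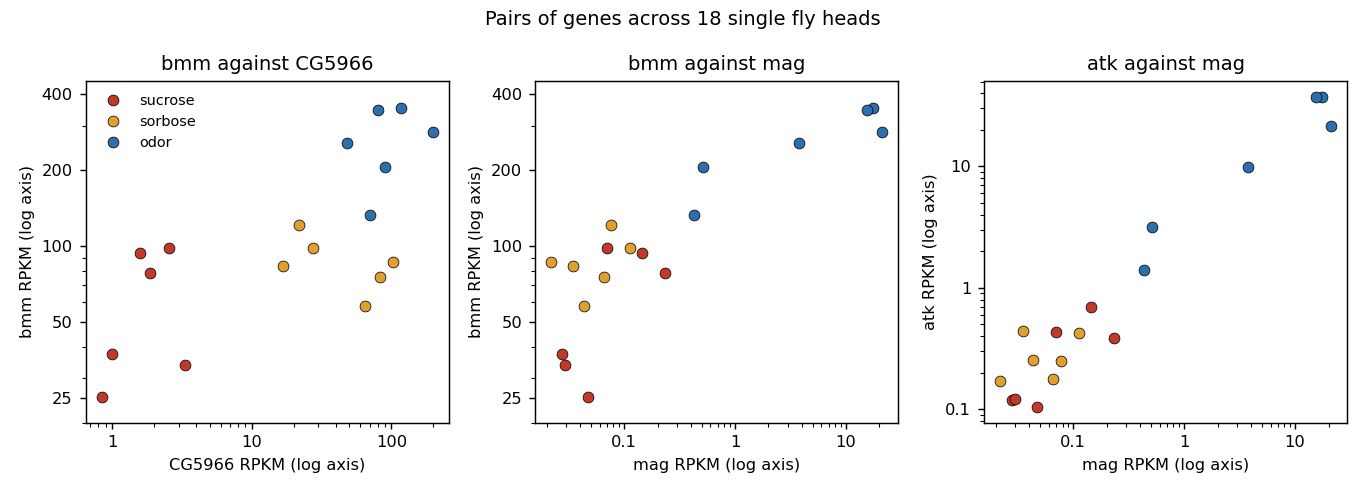
Pairs of genes over the 18 heads, in RPKM on log axes: bmm against CG5966, bmm against mag and atk against mag, coloured by sucrose, sorbose and odor. For bmm and mag the correlation is 0.81 over all heads, 0.50 within groups and 0.89 within odor heads. CG5966 and bmm are related mainly through the group means (0.70 over all heads, 0.06 within groups). atk and mag run close together (0.98).

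The non-member genes whose profile over the 18 heads was most like each lipase were listed by Pearson correlation on the log2 scale. They are the highest of all tested genes over these same heads, so their values within groups are no separate support. For bmm they were Mondo (0.95), a transcription factor of sugar sensing, SNF4Agamma (0.95), a subunit of the energy sensor AMP-activated kinase, and Ppt2 (0.95), a thioesterase that removes fatty acyl groups. The likeness to bmm was also seen within groups, at 0.83, 0.80 and 0.79. Mondo averaged 26.9 RPKM in sucrose, 32.3 RPKM in sorbose and 45.3 RPKM in odor flies, a much narrower range than that of bmm.

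For CG5966 the closest genes were CG9588 (0.90), GIIIspla2 (0.89), which encodes a secreted phospholipase, and Pepck1 (0.88), an enzyme of gluconeogenesis. Within groups these values were 0.35, 0.35 and 0.39, so the likeness rests mostly on the group means. Both better-known genes had the order of CG5966. GIIIspla2 averaged 23.6 RPKM in sucrose, 97.0 RPKM in sorbose and 376 RPKM in odor flies, and Pepck1 averaged 139 RPKM in sucrose, 835 RPKM in sorbose and 1522 RPKM in odor flies.

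For mag the closest genes were CG6428 (0.98), CG10761 (0.98) and CG34136 (0.98), and the values stayed at 0.95, 0.97 and 0.95 within groups. The values within groups rest mostly on odor heads, where the SD of mag on the log2 scale was 2.09, against 0.19 in sucrose and 0.08 in sorbose heads. CG10761 passed the filter only through the odor flies, with means of 0.0215 RPKM in sucrose, 0.129 RPKM in sorbose and 1.49 RPKM in odor flies. The closest genes to Hsl were lncRNA:CR45668 (0.93), CG17121 (0.93) and RanBPM (0.92). Those of Lip3 were CG14304 (0.87), Cpr50Cb (0.86), a cuticle protein gene, and asRNA:CR45927 (0.85). Lip4 had the weakest likeness, with Rala (0.76), a small GTPase, CG15880 (0.74) and Ugt302C1 (0.71).

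The wider lipase families were counted next. Of 28 other lipases of the pancreatic type, 10 were expressed highly enough to be tested, and of 20 other acid lipases 7 were. For sucrose against odor 3 of these 17 genes rose and none fell, and for sorbose against odor 3 rose and none fell (limma, Benjamini-Hochberg adjusted p under 0.05 over all 11062 genes). Of all genes 13.1% rose and 14.4% fell for sucrose, and 12.2% rose and 12.2% fell for sorbose. With 17 genes, nothing is read from these counts. Without odor replicate 3 an acid lipase, Lip2, was called lower for sucrose (limma adjusted p = 0.045). With all heads Lip2 averaged 18.4 RPKM in sucrose, 20.2 RPKM in sorbose and 27.8 RPKM in odor flies, a difference of -0.60 for sucrose minus odor (interval -1.12 to -0.08, limma adjusted p = 0.081). It is named after its values were seen. All risers were of the pancreatic type. No acid lipase was called in either comparison, with 1 of 7 at an unadjusted p under 0.05 in each. By voom none was called for sucrose and 1 for sorbose, and of the pancreatic type 5 rose for sucrose and 3 for sorbose. Voom also called more of all genes higher than lower, 18.8% higher and 8.48% lower for sucrose and 19% higher and 7.21% lower for sorbose, with the median of all genes at 0.06 and 0.07 on the log2 scale. The median log2 difference for sucrose minus odor was 0.31 over the pancreatic type and 0.22 over the acid type, beside -0.0012 over all genes. For sorbose minus odor it was 0.22 over the pancreatic type and -0.02 over the acid type, beside 0.0067 over all genes.

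sxe2, a sex-biased lipase of the pancreatic type, rose in both trained groups. It had 28.02 to 39.1 RPKM in sucrose heads (median 33.0), 21.4 to 39.9 RPKM in sorbose heads (median 30.1) and 1.76 to 24.0 RPKM in odor heads (median 12.8). Sucrose heads did not overlap with odor heads. The log2 difference was 1.88 ± 0.51 for sucrose minus odor (limma adjusted p = 0.012) and 1.72 ± 0.51 for sorbose minus odor (limma adjusted p = 0.022). CG5162 rose in sucrose flies by 1.01 ± 0.30 (limma adjusted p = 0.020), with 24.8 to 39.3 RPKM in sucrose heads and 6.32 to 23.2 RPKM in odor heads. For sorbose minus odor CG5162 had a difference of 0.56 ± 0.30 (limma adjusted p = 0.186). The other risers were smaller and are named after their values were seen. They were CG6847 for sucrose (0.19, limma adjusted p = 0.041) and CG6472 (0.60, limma adjusted p = 0.014) and CG17292 (0.41, limma adjusted p = 0.023) for sorbose. Some calls did not hold in every alternative. The call of sxe2 for sorbose was lost with only the 2 groups fitted (limma adjusted p = 0.065) or without odor replicate 6 (0.052), that of CG5162 without odor replicate 1 (0.052), that of CG17292 in 4 and that of CG6847 in 11 alternatives.

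CG7367, the most abundant of the other lipases, did not pass the test in any comparison. It averaged 91.7 ± 3.26 RPKM in sucrose, 91.4 ± 4.04 RPKM in sorbose and 93.5 ± 3.22 RPKM in odor flies (SD, n = 6 each), and the intervals of its log2 differences from odor, -0.11 to 0.06 for sucrose and -0.12 to 0.05 for sorbose, lay close to 0. For sucrose against sorbose none of the 17 lipases was called by limma, with 1 at an unadjusted p under 0.05 and none by voom. The counts of 3 moved with single heads. For sucrose against odor the count was 1 without odor replicate 1 and 5 without odor replicate 4, and for sorbose against odor it was 1 without odor replicate 6.

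Among genes of lipid droplets and of the control of lipolysis, 21 were listed and 20 tested. They did not move one way. For sucrose against odor 2 rose and 9 fell (limma, adjusted p under 0.05 over all genes), where 13.1% of all genes rose and 14.4% fell. For sorbose against odor 4 rose and 8 fell, where 12.2% of all genes rose and 12.2% fell. By voom 2 rose and 8 fell for sucrose, where 18.8% of all genes rose and 8.48% fell. For sorbose voom called 4 higher and 5 lower, where 19% of all genes rose and 7.21% fell. The median log2 difference was -0.20 for sucrose, beside -0.0012 over all genes, and -0.08 for sorbose, beside 0.0067 over all genes. Akh, the adipokinetic hormone gene, had a mean of 0.279 RPKM and was not tested. The count of 12 for sorbose was 7 without sorbose replicate 3, without odor replicate 1 or without odor replicate 6, and also 7 when only sorbose and odor flies were fitted. Of the 4 rises for sorbose, 1 was left without sorbose replicate 3, odor replicate 1 or odor replicate 6. For sucrose neither rise was left without odor replicate 1 or 6, or with only the 2 groups fitted.

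The perilipin gene Lsd-1, whose protein coats droplets and recruits Hsl, rose in both trained groups, where bmm had its lower values. It had 13.5 to 150.7 RPKM in sucrose heads (median 36.1), 27.0 to 81.1 RPKM in sorbose heads (median 62.9) and 2.10 to 21.5 RPKM in odor heads (median 10.95). Every sorbose head was above every odor head, and sucrose heads overlapped with odor heads. The log2 difference was 2.10 ± 0.62 for sucrose minus odor (limma adjusted p = 0.019) and 2.68 ± 0.62 for sorbose minus odor (limma adjusted p = 0.0072). The sorbose call held in all 28 alternatives, and the sucrose call was lost in the fit of 2 groups (limma adjusted p = 0.052) and without odor replicate 1 (0.051) or 6 (0.052). Lsd-2, the other perilipin gene, did not pass the test in any comparison. It averaged 39.3 ± 8.63 RPKM in sucrose, 75.1 ± 29.2 RPKM in sorbose and 61.1 ± 20.3 RPKM in odor flies (SD, n = 6 each), with a log2 difference of -0.60 for sucrose minus odor (limma adjusted p = 0.080), 0.27 for sorbose minus odor (limma adjusted p = 0.465) and -0.87 for sucrose minus sorbose (limma adjusted p = 0.188).

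Some other droplet genes rose in sorbose flies, with calls that single heads could end. Jabba, a droplet protein that in embryos holds histones, rose by 1.23 ± 0.37 (limma adjusted p = 0.025), with 20.04 to 48.3 RPKM in sorbose heads and 7.21 to 19.5 RPKM in odor heads. Its difference for sucrose minus odor was 0.51 ± 0.37 (limma adjusted p = 0.334). AkhR, the receptor of the adipokinetic hormone, rose by 0.69 ± 0.22 in sorbose flies (limma adjusted p = 0.030) and differed by 0.14 ± 0.22 in sucrose flies (limma adjusted p = 0.681). Neither gene passed the test of sucrose against sorbose itself, at an adjusted p of 0.553 for Jabba and 0.364 for AkhR (limma). Ldsdh1, a dehydrogenase of droplets and the most abundant gene of the list, rose in both, by 0.52 ± 0.18 for sucrose (limma adjusted p = 0.037) and 0.59 ± 0.18 for sorbose (limma adjusted p = 0.024). Of the 28 alternatives, 5 lost the sorbose call of Jabba, 6 that of AkhR and 4 that of Ldsdh1, and 9 lost the sucrose call of Ldsdh1. For each of the 3 sorbose calls these included the fits without sorbose replicate 3, odor replicate 1 and odor replicate 6. The adjusted p ranged up to 0.0635 for Jabba, 0.0773 for AkhR, 0.0637 for Ldsdh1 in sorbose and 0.096 for Ldsdh1 in sucrose flies (limma).

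The genes that fell included regulators, and the calls of foxo and Lpin against odor held in all 28 alternatives. foxo, a transcription factor that is active in fasting and is known to raise bmm in flies, had 16.4 to 21.1 RPKM in sucrose heads, 12.1 to 23.3 RPKM in sorbose heads and 22.8 to 52.9 RPKM in odor heads. It fell by 0.88 on the log2 scale in sucrose (SE 0.18, limma adjusted p = 0.0028) and by 0.83 in sorbose flies (SE 0.18, limma adjusted p = 0.0059). Lpin, which encodes the phosphatidate phosphatase lipin, fell in both without overlap. It had 46.7 to 58.1 RPKM in sucrose heads, 56.1 to 74.6 RPKM in sorbose heads and 79.1 to 215.1 RPKM in odor heads, a log2 difference of -1.43 ± 0.19 for sucrose minus odor (limma adjusted p = 1.5e-04) and of -1.11 ± 0.19 for sorbose minus odor (limma adjusted p = 0.0019). None of the 20 droplet genes was called for sucrose against sorbose by limma or by voom, with 3 at an unadjusted p under 0.05.

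**Figure D4:**
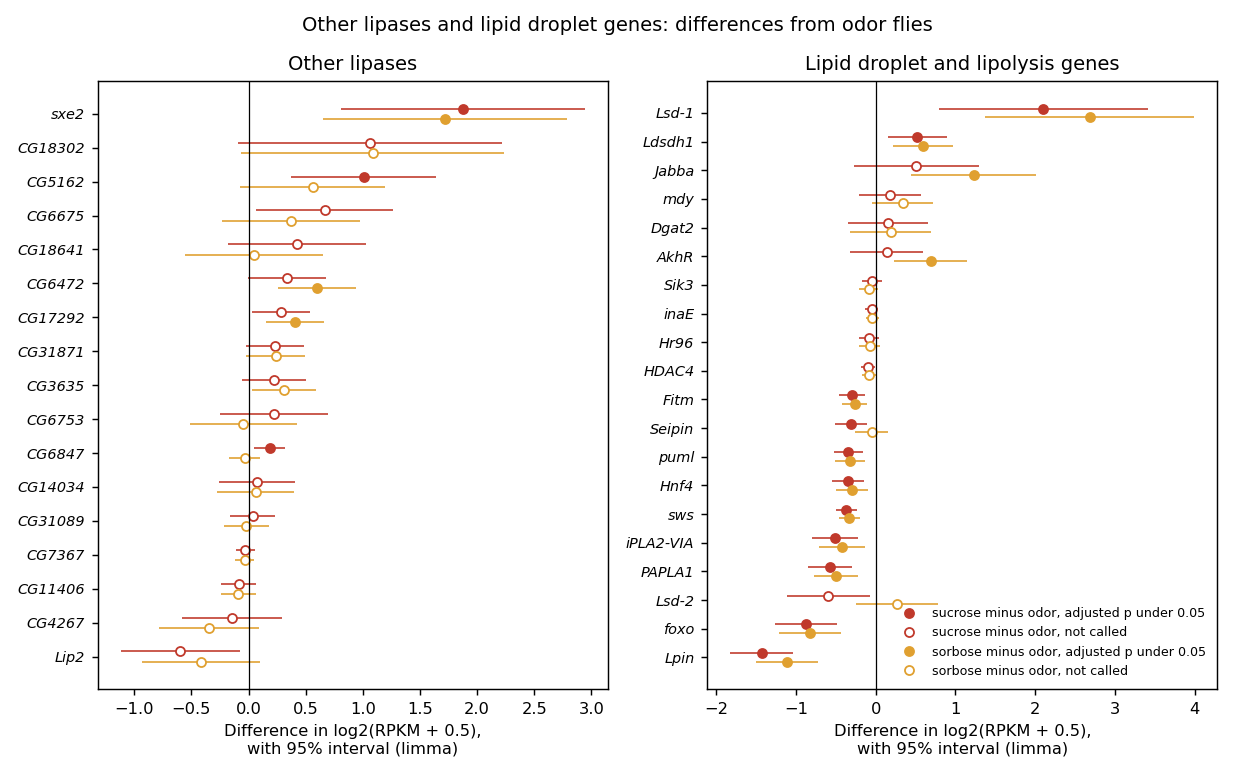
Differences of sucrose minus odor and sorbose minus odor for the 17 other lipases and the 20 lipid droplet and lipolysis genes tested, in log2(RPKM + 0.5) with 95% intervals. Filled points passed an adjusted p under 0.05. sxe2 (1.88 and 1.72) and Lsd-1 (2.10 and 2.68) lie highest, foxo and Lpin (-1.43 and -1.11) lowest.

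Markers of the tissues in a head are given beside these results. Fewer cells of a type and less RNA per cell cannot be told apart in whole heads. The summed level of 7 fat body genes ran from 5990 to 23446 RPKM in sucrose heads, from 2091 to 10532 RPKM in sorbose heads and from 3005 to 8278 RPKM in odor heads. For sucrose against odor 4 of the 7 rose (apolpp, Apoltp, Yp1 and Yp2) and for sorbose against odor 1 rose (apolpp), by limma at an adjusted p under 0.05. Of all genes 13.1% rose and 14.4% fell for sucrose, and 12.2% rose and 12.2% fell for sorbose. With so few genes per tissue, the counts here and below are descriptions. The median of this sum was highest in sucrose heads (7328 RPKM, against 6060 RPKM in sorbose and 3759 RPKM in odor flies), with overlap. bmm and CG5966 had their lowest values there. Most of the sum came from Yp1, Yp3 and Yp2, with means of 5459, 2316 and 1977 RPKM in sucrose flies. In odor flies these were 2183, 1822 and 581 RPKM. The next gene, apolpp, averaged 277 RPKM in sucrose and 38.3 RPKM in odor flies. Lsp2, Mtp and Yp3 were called in neither comparison with odor. The sum therefore mostly follows the Yp genes, and fat body content itself was not tested. The summed level of 4 neuron genes was 436 to 511 RPKM in sucrose, 466 to 551 RPKM in sorbose and 466 to 542 RPKM in odor flies. None of the 4 neuron genes, of 4 photoreceptor genes and of the 3 tested midgut genes was called in either comparison with odor by limma, and none had an unadjusted p under 0.05. Voom tested 2 of the neuron genes and all of the others and called none. For sucrose against odor 3 of 5 glia genes rose and 1 fell, 1 of 5 muscle genes rose, and 1 of 5 haemocyte genes rose and 2 fell. For sorbose against odor 1 glia gene fell, 1 muscle gene rose, and 1 haemocyte gene rose and 1 fell (limma). Glia genes depended on the fit, since voom called 3 higher for sucrose and 2 higher for sorbose, and none lower. It called 4 haemocyte genes for sucrose, 2 higher and 2 lower. Of all genes voom called 18.8% higher and 8.48% lower for sucrose, and 19% higher and 7.21% lower for sorbose. The part of tissue content in the lipase values was not tested.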

How the data were processed

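RNA of 18 single heads was measured, 6 per group, and each head was placed in its group by its label. Per the labels the kit was non-stranded. The authors deposited RPKM values for 17559 genes. The submitters' processing notes name CASAVA 1.8.2, TopHat2 2.0.13, edgeR 3.18.1 and the dm6 build. One passage of the study's methods names an older aligner and build instead, but the gene lengths behind the RPKM matched the dm6 annotation of Ensembl, which held 17253 of the gene identifiers and gave symbols and positions. Library sizes of 45.8 to 77.2 M reads were recovered from the smallest steps between values, and 97.9% of values under 50 reads were then whole to within 0.02. All 108 values of the 6 lipases were whole to within 0.05.

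RPKM are not counts, so values were analysed as log2(RPKM + 0.5) for the 11062 genes with a mean of at least 0.5 RPKM. This scale understates differences of low genes. One model with 3 groups was fitted with limma 3.58.1 in R 4.3.3 (trended eBayes). Two-sided p-values were given a Benjamini-Hochberg adjustment over all genes in each comparison and called under 0.05. The fit was also run on simulated reads, with the same spread beyond counting noise for every gene and independent heads. That run checked the code and does not measure how reliable the calls are in these heads, whose spread differed between genes. Intervals are at 95% confidence.

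The lipase members, the lists of other lipases and droplet genes and the tissue markers were all chosen with earlier results of these data known. The lists came from textbook knowledge and the annotation. Named list genes were those called with a log2 difference of at least 1, then Lsd-1, Lsd-2, Akh, AkhR, foxo and the 5 most abundant list genes, and for each lipase the 3 genes of highest Pearson correlation over the 18 heads. Exceptions are said in place.

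Alternatives were other pseudocounts, other filters, other scalings, a replicate block, fits of 2 groups, sample quality weights, single heads left out and, added after the data were seen, voom on the recovered reads.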

Additional observations from a re-analysis of the deposited data

How the results depend on the processing

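No called difference of the 6 lipases changed sign. Leaving out 1 head of 6 cannot move a difference by the spread between heads. Several other settings leave the difference as it was by design. That 493 of 498 values under alternatives stayed within this spread is therefore no measure of robustness. The exceptions were mag, whose log2 difference was -4.60 for sucrose minus odor and -4.81 for sorbose minus odor with a pseudocount of 0.1, and -5.64 and -6.04 with voom on the recovered reads, and Lip3 at 0.43 for sucrose minus odor with voom. mag and Lip3 dropped out when a mean of at least 5 RPKM was required. Voom split the calls over all genes as 1982 higher and 896 lower for sucrose against odor, against 1448 and 1593 on RPKM, and 2008 and 761 for sorbose, against 1355 and 1347. The voom fit also scaled heads differently. It used the summed reads of genes with whole recovered reads in every head, not the library sizes behind the RPKM. The part of this scaling in the voom calls was not tested. Where no reason is given the cause was not tested. For sucrose against odor, other lipases called numbered 6 with sample quality weights, 5 with voom and 1 to 5 without single heads, and lipases of the 6 called numbered 3 with voom and 5 whichever head was left out. For sorbose against odor, lipases of the 6 called numbered 1 with voom and 1 with a mean of at least 5 RPKM (mag was then not tested) and 2 to 4 without single heads, droplet genes called numbered 7 with only the 2 groups compared and 7 to 12 without single heads, other lipases called 1 to 4 and all genes called 1771 to 3179 without single heads, the lowest without odor replicate 6. For sucrose against sorbose, genes called numbered 19 with quantile normalization, 8 with only the 2 groups compared, 308 with sample quality weights, 4 with voom and 1 to 49 without single heads (49 without sorbose replicate 2), and other lipases called numbered 1 with sample quality weights. CG5966 was called in each of these comparisons of sucrose with sorbose. Samples share only a number. Of 18 same-numbered pairs 7 had deviations that correlated above 0.1 (range -0.341 to 0.435) and in 1 of them a head correlated best with its own number. With the replicate block 2716 genes were called for sucrose against odor, against 3041 without it, 2323 against 2702 for sorbose against odor and 1 for sucrose against sorbose, and calls among the 6 lipases stayed at 5, 2 and 1. Precision is limited for mag in trained heads (2 to 21 reads) and for Lip3 (26 to 72 reads).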
